A study of Mus musculus with 15 samples.

Results

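The 10 transcripts described here encode the chaperones and proteases that fold, sort and degrade proteins inside mitochondria, together with a partner protein of mitochondrial RNA. They were taken by gene symbol from the 22524 gene rows of each count table: Hspd1, Hspe1, Hspa9, Trap1, Lonp1, Clpp, Clpx, Yme1l1, Afg3l2 and Lrpprc. All 10 were found and all 10 passed the filter on low counts, which left 14989 genes to test. RNA was sequenced from tissue of 7 mice heterozygous for Rps9 D95N and from 8 wild-type (WT) littermates, all female C57BL/6 mice aged 18 months. Rps9 is a protein of the small subunit of the cytosolic ribosome, whose bacterial counterpart is known for mutations that lower decoding accuracy, and the D95N animals carry 1 substituted and 1 wild-type copy of its gene. Libraries are named by genotype and animal number. The labels name no batch, litter or date.

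Most mitochondrial proteins are made by cytosolic ribosomes and imported unfolded. Hspa9 (mortalin, the mitochondrial Hsp70) pulls them into the matrix, and the chamber formed by Hspd1 (Hsp60) with its lid Hspe1 (Hsp10) folds them. Proteins that fail are degraded by ATP-driven proteases, Lonp1 and the Clpx-Clpp pair in the matrix and Afg3l2 and Yme1l1 in the inner membrane. In other mammalian cells, unfolded protein in the matrix is known to raise several of these transcripts through the factors Atf5, Atf4, Ddit3 (Chop) and Cebpb, a programme called the mitochondrial unfolded protein response. Neurons depend on these proteases, and inherited defects of human AFG3L2 and of its partner SPG7 cause ataxia and spastic paraplegia.

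The series design gives the tissue as brain cortex, whereas the tissue field of the samples gives skeletal muscle. The libraries had a brain profile: 6 neuronal markers summed to 7489 to 8562 CPM in D95N and to 7439 to 8114 CPM in WT, and 8 skeletal muscle markers to 7.72 to 11.4 CPM in D95N and to 8.47 to 31.8 CPM in WT. CPM are counts relative to the library total; these marker sums use the totals as they are, and the levels of single genes from here on are also corrected by TMM factors for differences in composition. Of the 6 neuronal markers Slc17a7 (a glutamate transporter of excitatory neurons) and Gad1 (the GABA-making enzyme of inhibitory neurons) were called higher, at log2 fold changes of 0.50 and 0.21 (edgeR, adjusted p = 0.00232 and 0.0449), and Syt1 (a synaptic vesicle calcium sensor) lower, at -0.15 (edgeR, adjusted p = 0.00230). Total counts ran from 23349381 to 34587082, with D95N 50 and D95N 28 the shallowest. Rps9 itself stood at 63.1 ± 6.13 CPM in D95N (SD, n = 7) and 65.3 ± 3.02 CPM in WT (SD, n = 8). It was not called, at a log2 fold change of -0.05 ± 0.05 (SE, by edgeR; adjusted p = 0.505). A gene count does not show the substitution, so it does not check the genotype labels. Markers of some other cell types were lower in D95N: 7 of 7 blood markers passed the test (summed level 36.9 to 151 CPM in D95N, 79.4 to 312 CPM in WT), as did 4 of 6 meningeal fibroblast markers (56.1 to 125 CPM in D95N, 123 to 167 CPM in WT), 4 of 6 striatal, 2 of 5 astrocyte and 1 of 5 endothelial and mural markers. None of the 5 oligodendrocyte, 5 microglia or 5 choroid plexus markers passed. In bulk tissue, fewer cells of a type and less RNA per cell cannot be told apart.

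Of the 10 transcripts, 2 rose in D95N, both of them proteases: Afg3l2, 1.15-fold, and Lonp1, 1.11-fold. None fell, and the other 8, with all 4 chaperones of the set among them, did not pass the test. Each of the 2 calls held in 25 of 26 alternative settings. In the remaining one, which included scores of the blood and meningeal markers, the log2 fold changes were 0.03 for Afg3l2 and 0.07 for Lonp1, and none of the 10 was called. The meningeal score was at most -0.0215 in D95N libraries and at least 0.1097 in WT libraries. That score also varied within D95N, from -1.875 to -0.0215, so this setting tells genotype from score only in part. Fold changes here are D95N over WT, and the test was edgeR's quasi-likelihood test with adjustment over all 14989 genes at 0.05. In the same comparison 26.8% of all tested genes were called, 15.2% higher and 11.6% lower in D95N (12.1% higher and 16.9% lower with libraries scaled by their totals), so that 2 of 10 higher is near the share of all genes. The log2 fold changes of the 10 ran from -0.07 to 0.20, with 7 above 0 and 3 below, and their median was 0.04 beside -0.01 over all tested genes. For none of the 10 did the 7 D95N libraries lie wholly apart from the 8 WT libraries. Among all tested genes they lay wholly above in 1.81% and wholly below in 1.47%, so that none of 10 is near those shares.

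**Figure D1:**
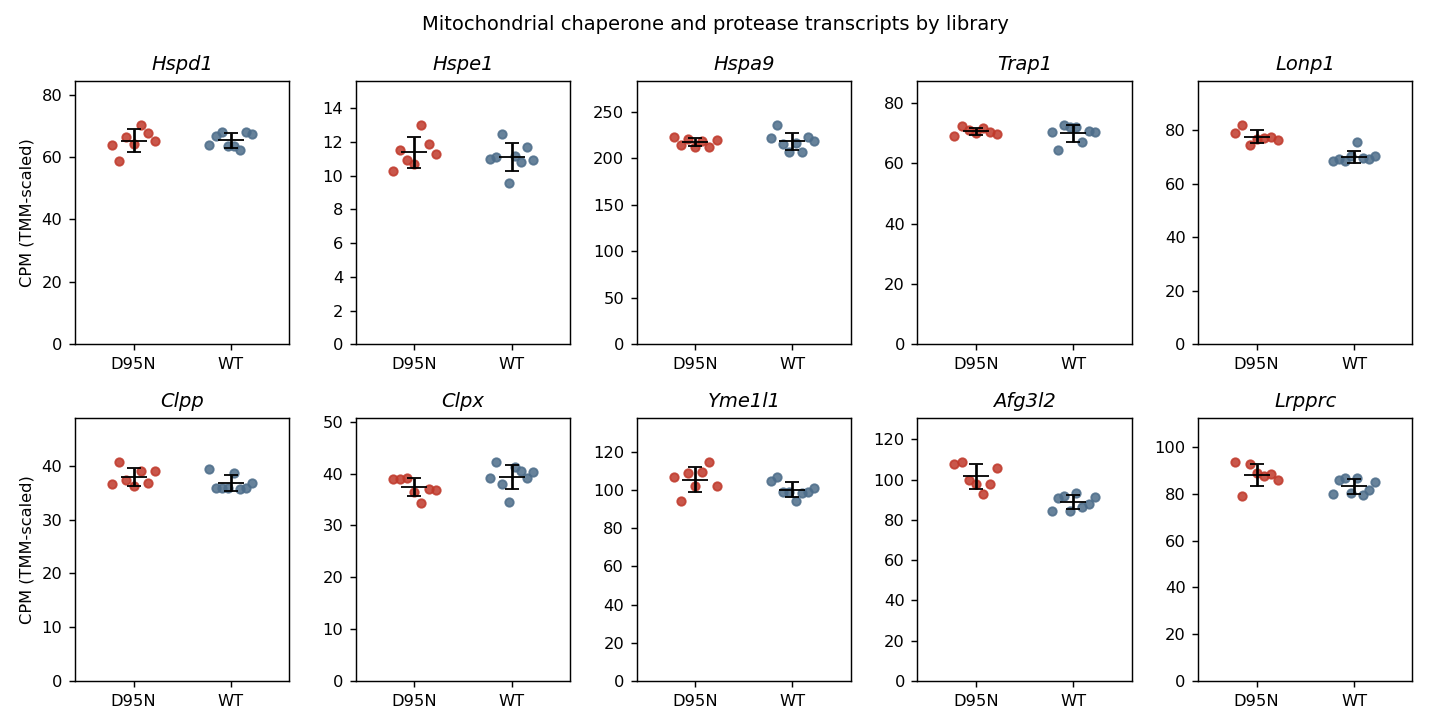
Level of each of the 10 transcripts in every library, in TMM-scaled CPM on axes that start at 0, with D95N (n = 7) left and WT (n = 8) right. Points are libraries and bars the mean ± SD; 6 of 7 D95N points lie above every WT point for Afg3l2 and for Lonp1, and the groups overlap in all 10 panels.

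Afg3l2 (ENSMUSG00000024527, GRCm38 chromosome 18, 67404764 to 67449172, minus strand) encodes a subunit of the m-AAA protease, an inner membrane ring whose active sites face the matrix. The D95N libraries ran from 92.97 to 109 CPM with a median of 99.98 CPM, and the WT libraries from 84.2 to 93.2 CPM with a median of 89.2 CPM. All 7 D95N libraries were above the WT mean, and D95N 42, the lowest, lay just under WT 30, the highest of its group, so the groups overlapped by that 1 library on each side. Means were 102 ± 6.09 CPM in D95N and 88.7 ± 3.55 CPM in WT (SD, n = 7 and 8). The log2 fold change was 0.20 ± 0.04 (SE), a fold of 1.15 with a 95% interval of 1.08 to 1.21 (edgeR, adjusted p = 0.00187).

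Lonp1 (ENSMUSG00000041168, chromosome 17, 56614297 to 56626887, minus strand) encodes the matrix protease that degrades oxidised and misfolded proteins and also the DNA-packaging factor Tfam. D95N libraries lay between 74.5 and 82.04 CPM, median 77.1 CPM, against 68.7 to 75.5 CPM, median 69.4 CPM, in WT. Here too 6 of 7 D95N libraries were above all WT libraries. The exceptions were D95N 4, the lowest of its group, and WT 30, whose 75.5 CPM stood apart from the 68.7 to 70.3 CPM of the other WT animals. Mean levels were 77.6 ± 2.42 CPM in D95N and 70.2 ± 2.25 CPM in WT (SD, n = 7 and 8), a log2 fold change of 0.14 ± 0.03 (SE) and a fold of 1.11 with a 95% interval of 1.06 to 1.15 (edgeR, adjusted p = 0.00244).

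The bases before the start of Lonp1 are shown because it is the called gene for which the RefSeq table of promoter windows (build GRCm38.p6) held an entry, and those of Trap1, which was not called, because the same letters occur in them. The windows reach 250 bases before and 50 after each start, and 8 of the 10 genes matched, all but Afg3l2 and Hspa9. Both sequences lie on the minus strand, Lonp1 at chr17:56626904-56627153 and Trap1 at chr16:4077828-4078060, and capitals mark TGACGT, the core letters bound by CREB and ATF family factors, searched on both strands.
Lonp1: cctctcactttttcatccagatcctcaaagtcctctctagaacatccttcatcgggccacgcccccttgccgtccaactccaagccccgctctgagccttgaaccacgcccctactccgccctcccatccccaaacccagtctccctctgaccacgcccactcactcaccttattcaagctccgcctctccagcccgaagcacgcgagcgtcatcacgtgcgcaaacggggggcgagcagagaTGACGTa
Trap1: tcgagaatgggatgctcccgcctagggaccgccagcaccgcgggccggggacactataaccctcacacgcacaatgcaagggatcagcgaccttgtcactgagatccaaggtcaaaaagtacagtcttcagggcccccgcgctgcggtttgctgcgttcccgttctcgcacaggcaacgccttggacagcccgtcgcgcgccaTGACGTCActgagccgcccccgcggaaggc
In Lonp1 the capitals begin 7 bases before the RefSeq start. In Trap1 they begin 47 bases before it and spell the full palindrome TGACGTCA, in which the core reads on both strands. The core occurred in the windows of Lonp1, Trap1 and Lrpprc and in 7.51% of all 32851 windows of the same length, and the palindrome in 1.79%. The letters TGATGNAA, known for composite sites of C/EBP and ATF factors, occurred in none of the 8 genes and in 3.97% of all windows, and the NRF1 palindrome in none of the 8 and in 0.971% of all windows. These letters were chosen with the sequences in view, and a match does not show binding.

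Yme1l1 (ENSMUSG00000026775, chromosome 2, 23156369 to 23199260, plus strand) encodes the i-AAA protease, which faces the intermembrane space and cuts the fusion protein Opa1. It ran from 94.6 to 115 CPM in D95N (median 107 CPM) and from 94.2 to 107 CPM in WT (median 99.1 CPM). The ranges overlapped, with D95N 28 near the bottom of the WT range and 4 D95N libraries above all of it. Its fold of 1.05 had a 95% interval of 0.993 to 1.11 and did not pass (log2 fold change 0.07 ± 0.04, SE; edgeR, adjusted p = 0.175).

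Clpp and Clpx encode the peptidase barrel and the ATP-driven unfoldase that feeds it, which together form 1 matrix protease. Clpp (ENSMUSG00000002660, chromosome 17, 56990305 to 56996188, plus strand) stood at 36.3 to 40.8 CPM in D95N and 35.7 to 39.5 CPM in WT. Clpx (ENSMUSG00000015357, chromosome 9, 65294260 to 65330658, plus strand) stood at 34.3 to 39.2 CPM in D95N and 34.5 to 42.3 CPM in WT. Neither passed the test, and the signs differed. The fold of Clpp was 1.03 with a 95% interval of 0.979 to 1.09 (edgeR, adjusted p = 0.355). That of Clpx was 0.950 with an interval of 0.891 to 1.01 (edgeR, adjusted p = 0.225), and all 7 D95N libraries were below the WT mean.

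Hspd1 (ENSMUSG00000025980, chromosome 1, 55077835 to 55088243, minus strand) and Hspe1 (ENSMUSG00000073676, chromosome 1, 55088132 to 55091307, plus strand) sit head to head and overlap by 112 bases in the annotation. Their shared promoter is known in human cells to hold heat shock elements, bound by Hsf1. The 30 bases around such an element, at chr1:55088053-55088082 on the plus strand, are shown because they lie in the windows of both genes, and capitals mark 2 overlapping matches of 3 units of the element, TTC, GAA and TTC each spaced by any 2 bases, searched on both strands.
Hspd1 and Hspe1: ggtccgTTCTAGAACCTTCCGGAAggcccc
The first match begins 89 bases before the RefSeq start of Hspe1. Of the 8 genes with a window, Hspd1 and Hspe1 alone held this motif, against 0.603% of all windows. Its last letters overlap CCGGAAG, the ETS family core, which occurred in the windows of Hspd1, Hspe1, Clpp and Yme1l1 and in 8.86% of all windows.

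Neither gene of this pair passed the test. Hspd1 ran from 58.6 to 70.3 CPM in D95N (median 65.1 CPM) and from 62.2 to 68.1 CPM in WT (median 65.2 CPM), and D95N 28 and D95N 42 were the lowest and highest of all 15 libraries. Hspe1 ran from 10.3 to 13.02 CPM in D95N (median 11.3 CPM) and from 9.60 to 12.5 CPM in WT (median 11.1 CPM). The folds were 0.997 for Hspd1 (95% interval 0.944 to 1.05; edgeR, adjusted p = 0.948) and 1.03 for Hspe1 (95% interval 0.940 to 1.12; edgeR, adjusted p = 0.674). Hsf1, the heat shock factor, was at -0.01 ± 0.06 on the log2 scale (SE; edgeR, adjusted p = 0.931). Counts of this pair are uncertain, since neither the strand setting nor the treatment of multi-mapping reads is stated in the labels. The annotation lists 5 processed pseudogenes of Hspd1 and 6 of Hspe1, and 1 of Hspa9, none of which had a row in the tables.

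Hspa9 (ENSMUSG00000024359, chromosome 18, 34937414 to 34954357, minus strand), the Hsp70 of the import motor, had the highest CPM of the set. It ran from 212 to 223 CPM in D95N (median 219 CPM) and from 207 to 236 CPM in WT (median 218 CPM), so every D95N library lay within the WT range. The fold was 0.997 with a 95% interval of 0.953 to 1.04 (edgeR, adjusted p = 0.922), which leaves room for a change of a few percent in either direction.

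Trap1 (ENSMUSG00000005981, chromosome 16, 4039971 to 4077827, minus strand), the mitochondrial Hsp90, varied least of the set among D95N libraries, with an SD of log2 CPM of 0.0229, but not among WT libraries, where its SD was 0.0597 and that of Lonp1 0.0451. D95N libraries lay between 69.1 and 72.3 CPM (median 70.2 CPM) and WT libraries between 64.4 and 72.7 CPM (median 70.6 CPM), with all 7 D95N libraries inside the WT range. The fold was 1.01 with a 95% interval of 0.965 to 1.05 (edgeR, adjusted p = 0.783). The gene overlaps Dnase1 on the other strand by 54 bases.

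Lrpprc (ENSMUSG00000024120, chromosome 17, 84705247 to 84790789, minus strand) encodes the RNA-binding protein that, with Slirp, stabilises the mRNAs made in mitochondria. It ran from 79.3 to 93.9 CPM in D95N (median 88.5 CPM) and from 79.4 to 87.0 CPM in WT (median 83.5 CPM). D95N 28 was the lowest of all 15 libraries, whereas 5 of the other D95N libraries were above every WT library. The fold was 1.06 with a 95% interval of 1.004 to 1.12 and did not pass (log2 fold change 0.08 ± 0.04, SE; edgeR, unadjusted p = 0.0376, adjusted p = 0.103). Together with Afg3l2 and Lonp1 it made up the 3 of 10 with an unadjusted p under 0.05, beside 39.9% of all tested genes.

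D95N 28 weighed on both transcripts that came next after the called ones. Without it the log2 fold change of Yme1l1 was 0.10 (edgeR, adjusted p = 0.0473) and that of Lrpprc 0.11 (edgeR, adjusted p = 0.0216), so that 4 of 10 were called, all higher, beside 14.7% of all tested genes called higher in that fit. The same 4 were called without the 2 shallowest libraries, D95N 50 and D95N 28, beside 13.1% of all tested genes called higher. Over all 26 alternatives their adjusted p ran from 0.00171 to 0.947 and from 0.0189 to 0.916, with 3 calls each. The library held the highest level of 3 of the 10 transcripts among all 15 libraries and the lowest of 2. Its extremes pointed both ways, high for Lonp1, Afg3l2, Clpp and low for Hspd1 and Lrpprc. Across libraries, the 10 transcripts varied little. Their SD of log2 CPM had a median of 0.0755 across D95N and of 0.0580 across WT libraries, and 6 of 10 varied more in D95N. Among 10177 tested genes that averaged 10 CPM or more these medians were 0.122 in D95N and 0.0690 in WT, and 88.2% varied more in D95N.

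**Figure D2:**
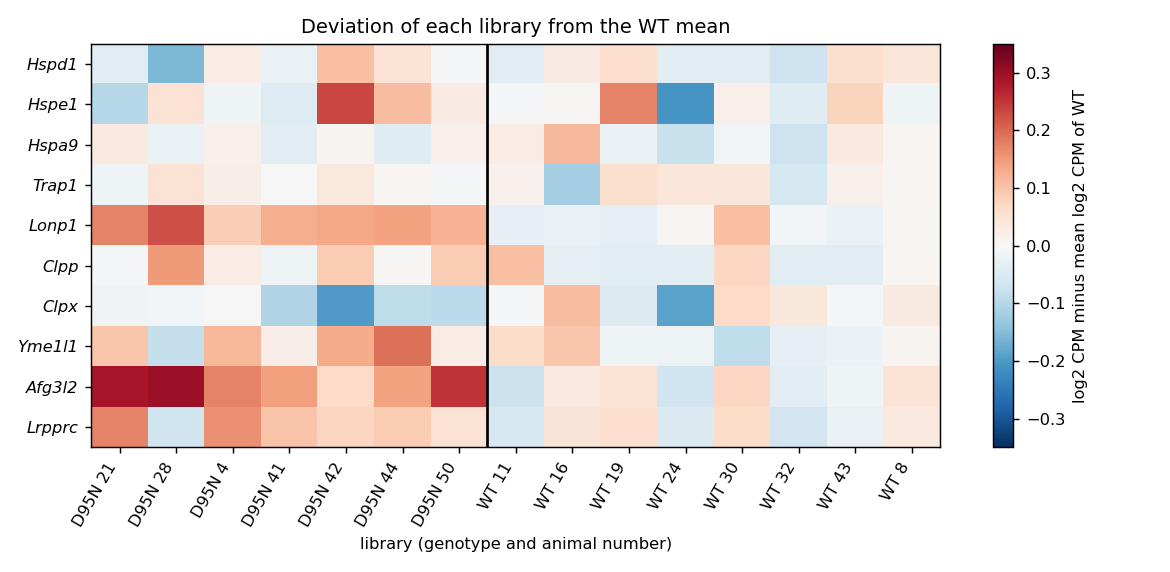
Difference of each library's log2 CPM from the WT mean, for the 10 transcripts (rows) in the 7 D95N libraries (left of the line) and the 8 WT libraries (right). Lonp1 and Afg3l2 are above 0 in all 7 D95N libraries, Clpx is below 0 in all 7, and D95N 28 has both the highest Afg3l2 and the lowest Hspd1.

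To compare levels between genes, CPM were divided by the length of the principal annotated transcript in kilobases. Hspa9 came first, at 71.3 CPM per kb in D95N and 71.5 CPM per kb in WT, and Clpp second, at 38.7 CPM per kb in D95N and 37.4 CPM per kb in WT. Both were separate from the next gene in every library of either genotype. Afg3l2 and Trap1 followed and changed places: Afg3l2 ranked 3 in D95N, at 32.9 CPM per kb beside 30.4 CPM per kb for Trap1, and 4 in WT, at 28.7 CPM per kb beside 30.1 CPM per kb for Trap1. These 2 genes overlapped across libraries in both genotypes, so their order was not clear in either. Below them came Hspd1 (26.9 CPM per kb in D95N, 26.99 in WT) and Lonp1 (26.3 CPM per kb in D95N, 23.8 in WT), whose ranges overlapped in D95N and were separate in WT. Yme1l1 stood at 22.4 CPM per kb in D95N and 21.3 in WT, Lrpprc at 20.1 in D95N and 18.96 in WT, Hspe1 at 14.7 in D95N and 14.4 in WT, and Clpx at 13.0 in D95N and 13.6 in WT. Yme1l1 and Lrpprc overlapped in D95N, Afg3l2 and Hspd1 in WT, and Hspe1 and Clpx in both. The order depends on the length used. With the union of all annotated exons, 9874 bases for Afg3l2 in place of 3094, Afg3l2 ranked 9 of the 10 in both genotypes.

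Some of these proteins work in fixed complexes, so the ratio of partner transcripts was compared within each library, by an exact permutation test, two-sided, over the 6435 ways to draw 7 of 15 libraries, adjusted over 4 ratios. Spg7 (paraplegin), another subunit of the m-AAA protease, did not follow Afg3l2. Its level was 46.7 ± 3.19 CPM in D95N and 48.6 ± 2.11 CPM in WT (SD, n = 7 and 8), and it was not called, at -0.06 ± 0.04 on the log2 scale (SE; edgeR, adjusted p = 0.342). The ratio of Spg7 to Afg3l2 ran from 0.426 to 0.490 in D95N (median 0.470) and from 0.508 to 0.574 in WT (median 0.555). All 7 D95N libraries were below all 8 WT libraries, a difference of -0.25 on the log2 scale with an exact permutation p of 0.000155, the smallest this test can give (0.000622 adjusted). The ratio includes the difference in Afg3l2 already given and is not a second observation of it. How often ratios of gene pairs other than these 4 separate the groups was not examined. Leaving out any 1 library moved the difference between -0.27 and -0.23.

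The ratio of Clpx to Clpp was also lower in each of the 7 D95N libraries than the WT mean. It ran from 0.876 to 1.06 in D95N (median 1.003) and from 0.963 to 1.18 in WT (median 1.08), and the groups overlapped. The difference of -0.12 on the log2 scale had an exact permutation p of 0.0305 and of 0.0609 adjusted over the 4 ratios, so it did not pass. Without D95N 21, D95N 4, WT 11 or WT 24 it was -0.14 and passed. With each of the 15 libraries left out in turn, the adjusted exact permutation p ran from 0.0221 to 0.135.

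For the lid and the chamber of the folding machine no difference in ratio was detected. Hspe1 over Hspd1 had a median of 0.174 in D95N (0.162 to 0.196) and 0.173 in WT (0.151 to 0.184), a log2 difference of 0.04 (exact permutation p = 0.381, 0.508 adjusted). Slirp over Lrpprc had a median of 0.158 in D95N (0.151 to 0.230) and 0.166 in WT (0.152 to 0.210), a log2 difference of 0.02 (exact permutation p = 0.846, also 0.846 adjusted). Its highest values were those of D95N 28 and WT 8, and without D95N 28 the difference was -0.05. Slirp itself stood at 15.3 ± 1.80 CPM in D95N and 14.3 ± 1.70 CPM in WT (SD, n = 7 and 8; log2 fold change 0.10 ± 0.08, SE; edgeR, adjusted p = 0.37).

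**Figure D3:**
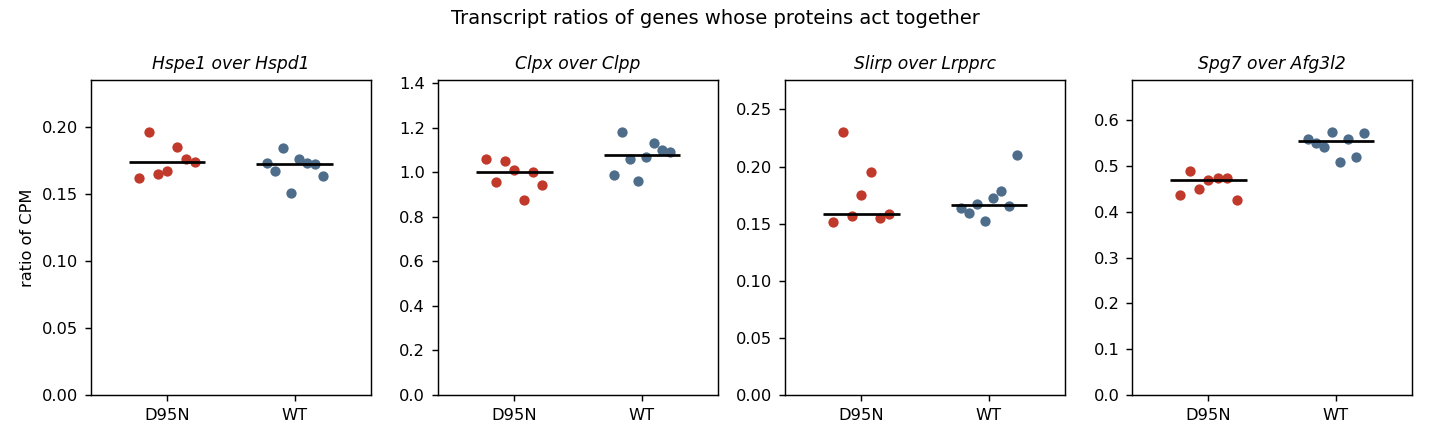
Ratio of CPM for 4 pairs of genes whose proteins act together, per library, with D95N (n = 7) left and WT (n = 8) right; lines are medians and axes start at 0. The 7 D95N points for Spg7 over Afg3l2, 0.426 to 0.490, all lie below the WT points, 0.508 to 0.574, and the groups overlap in the other 3 panels.

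Within each genotype, the levels of partners were also correlated across animals, 8 correlations in all. None passed after adjustment over the 8 (adjusted exact permutation p of at least 0.28). For Hspd1 and Hspe1, Pearson's r of log2 CPM was 0.51 over 7 D95N libraries (exact permutation p = 0.226; Spearman's rho 0.61, p = 0.167) and 0.64 over 8 WT libraries (exact permutation p = 0.0699; rho 0.64, p = 0.0962). In D95N it was 0.86 without D95N 28 and D95N 42, the libraries farthest from the median of Hspd1. Leaving out 1 library at a time gave 0.08 without D95N 42 and 0.95 without D95N 28, where it passed (adjusted exact permutation p = 0.0444), so it rests on those libraries. For Afg3l2 and Spg7 r was 0.67 in D95N (exact permutation p = 0.0677; rho 0.68, p = 0.11) and 0.43 in WT (exact permutation p = 0.293; rho 0.36, p = 0.389). The value in D95N was 0.21 without D95N 28 and D95N 21. For Lrpprc and Slirp it was -0.64 in D95N (exact permutation p = 0.118; rho -0.25, p = 0.595), 0.05 without D95N 28 and D95N 21, and 0.55 in WT (exact permutation p = 0.156; rho 0.57, p = 0.151). Clpp and Clpx gave -0.06 in D95N (exact permutation p = 0.917; rho 0.11, p = 0.84) and 0.23 in WT (exact permutation p = 0.571; rho 0.17, p = 0.703). Levels in 1 library share its scaling, which such correlations include.

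Under the alternative settings the size of both changes varied. Scaling by library totals gave log2 fold changes of 0.16 for Afg3l2 and 0.11 for Lonp1. A correction for GC content and length, taken as the union of all annotated exons, gave 0.20 and 0.08, still called. It added Yme1l1 at 0.17 (edgeR, adjusted p = 0.00171) and Lrpprc at 0.11 (edgeR, adjusted p = 0.0209). So 4 of 10 were called, all of them higher, beside 2389 of 14928 genes called higher in that fit (29.5% called in either direction). The exception was the fit that included, for each library, 1 score for the blood markers and 1 for the meningeal markers, of which 7 of 7 and 4 of 6 were lower in D95N. There the adjusted p (edgeR) was 0.925 for Afg3l2 and 0.742 for Lonp1. The meningeal score separated the genotypes completely but varied within them, so this fit tells genotype from score only in part. In that fit the median SE over all genes was 0.125, beside 0.0650 without the scores, and 12 of 14989 genes were called (0.0801%). For Afg3l2 the log2 fold change there was 0.03 ± 0.06 (SE), beside 0.20 ± 0.04 without the scores. For Lonp1 it was 0.07 ± 0.06, beside 0.14 ± 0.03. Over all alternatives the adjusted p ran from 2.43e-05 to 0.925 for Afg3l2 and from 2.32e-05 to 0.742 for Lonp1. With oligodendrocyte, choroid plexus and striatum scores instead, both were called, at 0.26 and 0.15. Of those lists the striatal one was also lower in D95N, in 4 of 6 markers, whereas no oligodendrocyte or choroid plexus marker passed. Spg7 was at -0.18 in the fit with blood and meningeal scores and was not called there. Its difference from Afg3l2 was not tested in that fit.

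**Figure D4:**
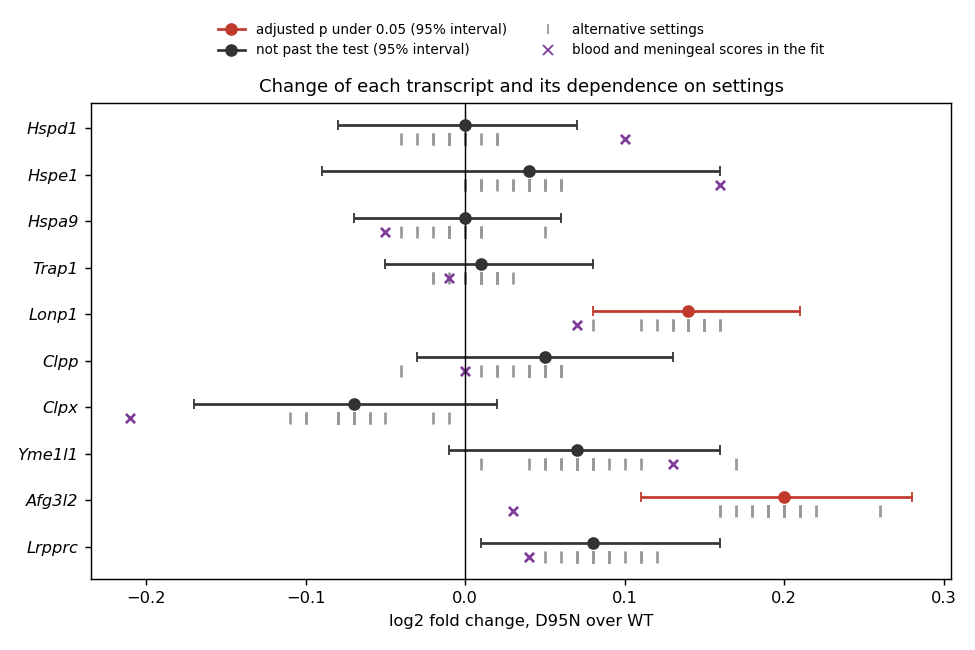
Log2 fold change, D95N over WT, of each of the 10 transcripts with its 95% interval (circles and bars; red, adjusted p under 0.05), the values under alternative settings (ticks) and that of the fit with blood and meningeal scores (crosses). Lonp1 and Afg3l2 lie above 0 throughout; with these scores Afg3l2 is at 0.03 and Lonp1 at 0.07.

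For each called transcript, the tested gene of at least 10 mean CPM with the most similar profile over the 15 libraries was looked up, by the root mean square difference of standardised log2 CPM. For Lonp1 it was Ccdc92 (difference 0.350), at 102 ± 6.20 CPM in D95N and 90.2 ± 2.21 CPM in WT (SD, n = 7 and 8), and for Afg3l2 it was 1700037H04Rik (difference 0.293), at 68.1 ± 9.27 CPM in D95N and 54.8 ± 2.75 CPM in WT (SD, n = 7 and 8). Both passed the test, with log2 fold changes of 0.17 and 0.31 (edgeR, adjusted p = 0.00255 and 0.00351). A gene picked for its likeness to a called one over these libraries will tend to be called too. These 2 calls are therefore no separate evidence.

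Lists of other mitochondrial genes were set beside the 10, and their shares of called genes ran from 0% to 25.9%, below the 26.8% over all genes. Of 17 other chaperones and cochaperones 2 rose and 1 fell. Fkbp8, an outer membrane chaperone that binds Bcl2, stood at 347 ± 33.6 CPM in D95N and 305 ± 9.78 CPM in WT (SD, n = 7 and 8; log2 fold change 0.18; edgeR, adjusted p = 0.0106). Phb2, a prohibitin of the ring that surrounds the m-AAA protease, was called at a log2 fold change of 0.11 (edgeR, adjusted p = 0.0411), a call kept in 8 of 26 alternatives, while its partner Phb was at -0.04. Dnajc19, a cofactor of the import motor, fell to 8.27 ± 0.897 CPM in D95N, against 10.3 ± 0.715 CPM in WT (SD, n = 7 and 8; log2 fold change -0.32; edgeR, adjusted p = 0.00294). The direct helpers of Hspa9 did not pass: Grpel1, its nucleotide exchange factor, was at 0.06 and the J-protein Dnaja3 at 0.05.

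Of 17 other proteases and peptidases 2 rose and 1 fell, and the median log2 fold change was -0.02. Atp23, an inner membrane metalloprotease known in yeast for maturing an ATP synthase subunit, was 4.67 to 6.04 CPM in D95N and 3.93 to 4.61 CPM in WT. All 7 D95N libraries were above all 8 WT libraries (log2 fold change 0.30 ± 0.08, SE; edgeR, adjusted p = 0.0109). Pitrm1, which degrades cleaved presequences and amyloid beta in the matrix, rose by 0.13 (edgeR, adjusted p = 0.0295), and Metap1d, a methionine aminopeptidase, fell by 0.26 (edgeR, adjusted p = 0.0272). These 2 calls were kept in 16 and 17 of 26 alternatives. Oma1, the stress-activated protease that cuts Opa1 beside Yme1l1, had a log2 fold change of -0.18 (edgeR, adjusted p = 0.0895).

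Among 27 genes of the import machinery 4 rose and 3 fell. Timm8b, a small chaperone of the intermembrane space, stood at 62.2 ± 6.66 CPM in D95N and 50.5 ± 2.18 CPM in WT (SD, n = 7 and 8; log2 fold change 0.30; edgeR, adjusted p = 0.00139). Tomm34, a cytosolic cochaperone of import, and Timm10b, another small intermembrane chaperone, rose by 0.18 and 0.22 (edgeR, adjusted p = 0.00302 and 0.00455). Timm22, the channel of the carrier pathway, fell by 0.12 (edgeR, adjusted p = 0.0115). Of 28 genes of mitochondrial RNA metabolism, the setting in which Lrpprc acts, 3 rose and 3 fell. Hsd17b10 and Elac2, parts of the enzymes that cut tRNAs out of the long mitochondrial transcripts, rose by 0.31 and 0.24 (edgeR, adjusted p = 0.00133 and 0.00447), and Grsf1, an RNA granule protein, rose by 0.19 (edgeR, adjusted p = 0.00717). Polg2, an accessory subunit of the mitochondrial DNA polymerase, fell to 1.87 ± 0.345 CPM in D95N, against 2.53 ± 0.329 CPM in WT (SD, n = 7 and 8; log2 fold change -0.43; edgeR, adjusted p = 0.0183).

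None of the 7 tested mRNAs made inside mitochondria was called by edgeR, and 1 had an unadjusted p under 0.05. That was mt-Nd6, encoded on the light strand, at 48.6 ± 10.99 CPM in D95N and 40.2 ± 3.94 CPM in WT (SD, n = 7 and 8; log2 fold change 0.27; edgeR, adjusted p = 0.0809). It was called in 3 of 26 alternatives, the GC and length correction among them (0.39; edgeR, adjusted p = 0.028; range over alternatives 0.028 to 0.804). It lies opposite the other mitochondrial mRNAs, so its counts are uncertain without a stated strand setting. mt-Nd1, a complex I subunit, had a log2 fold change of -0.05 (edgeR, adjusted p = 0.629). The other 6 of 13 mRNAs, mt-Co2 and mt-Atp6 among them, had at most 4 counts in any library and could not be described.

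**Figure D5:**
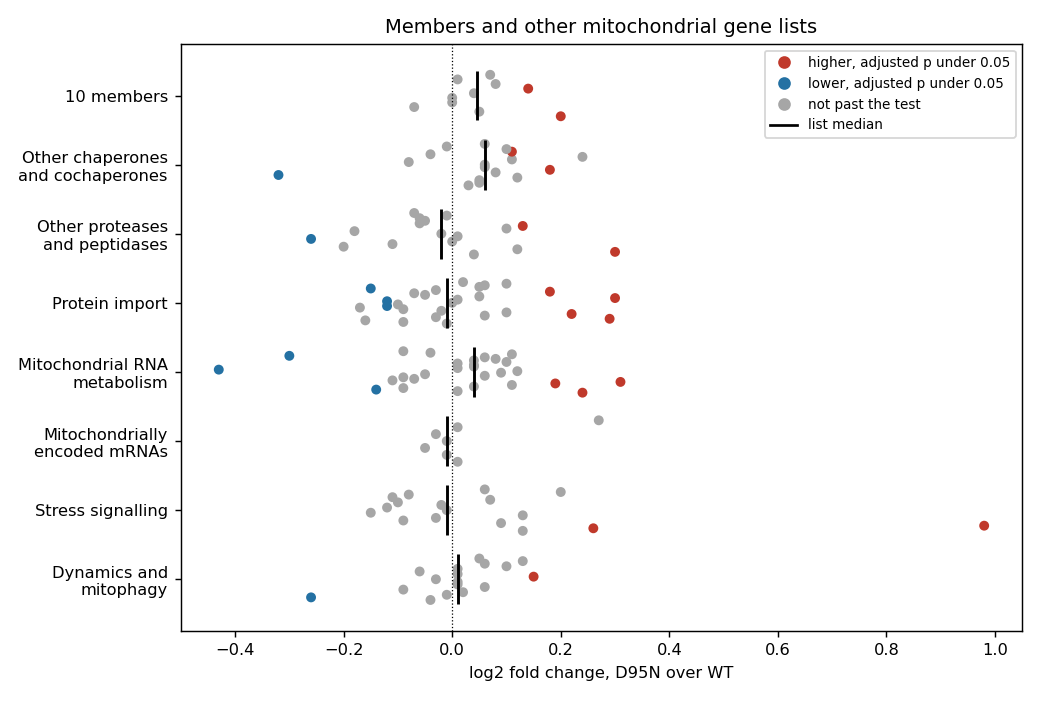
Log2 fold change, D95N over WT, of the 10 members (top row) and of 7 lists of other mitochondrial genes; each point is a gene, coloured by the edgeR call, and bars are list medians. The medians lie between -0.02 and 0.06, and Cebpb, at 0.98, stands far to the right of all others.

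Among the factors of the mitochondrial unfolded protein response named above, Cebpb and Atf5 were called, and Atf4 and Ddit3 were not. Cebpb, a leucine zipper factor with many roles outside mitochondria, rose 1.97-fold: 8.44 to 18.8 CPM in D95N and 5.52 to 6.98 CPM in WT, with all 7 D95N libraries above all WT libraries (log2 fold change 0.98 ± 0.15, SE; edgeR, adjusted p = 0.000443). Atf5 rose by 0.26 (edgeR, adjusted p = 0.0286), a call kept in 18 of 26 alternatives. Atf4 and Ddit3 had log2 fold changes of 0.13 and 0.09 and did not pass (edgeR, adjusted p = 0.0589 and 0.392). Atf4 was called in 4 of 26 alternatives, DESeq2 among them (adjusted p = 0.0450; range over alternatives 0.0224 to 0.415). Of the 17 tested genes on this list 2 were called, both higher, and the median log2 fold change was -0.01. The list holds 19 genes, and Fgf21 and Gdf15 did not pass the filter on low counts. Fgf21, a hormone that other tissues release under mitochondrial stress, had 0 to 15 counts a library in D95N and 0 to 2 counts in WT, where 7 of 8 libraries had none. Its level, 0 to 0.479 CPM in D95N and 0 to 0.0627 CPM in WT, was above every WT library in 6 of 7 D95N libraries. In the fit without a filter Fgf21 was called higher (edgeR, adjusted p = 0.00294), so that 3 of the 19 genes were. In that fit 12.2% of all 18953 genes were called higher, so 3 of 19 is near the share of all genes. Gdf15, another stress hormone, was not called there (edgeR, adjusted p = 0.278). Of 17 genes of mitochondrial dynamics and mitophagy 1 rose and 1 fell. Mfn2, a mitofusin of the outer membrane, was 265 to 285 CPM in D95N and 235 to 253 CPM in WT, without overlap (log2 fold change 0.15 ± 0.03, SE; edgeR, adjusted p = 0.000966). Like Cebpb and Atp23, it was the only gene of its list with the genotypes wholly apart. Among all tested genes D95N lay wholly above WT in 1.81% and wholly below in 1.47%. Bnip3l (Nix), a mitophagy receptor, fell to 89.3 ± 6.69 CPM in D95N, against 107 ± 5.91 CPM in WT (SD, n = 7 and 8; log2 fold change -0.26; edgeR, adjusted p = 0.00119). Over the 7 lists 14 genes rose and 9 fell. As for Afg3l2 and Lonp1, none of these calls held when blood and meningeal scores were included, where Cebpb was at 0.83 (edgeR, adjusted p = 0.425; range over alternatives 1.73e-08 to 0.425).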

How the data were processed

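The authors deposited raw read counts per gene, 1 table per library; per the submitters' processing notes they used STAR, featureCounts and GRCm38. The labels state no versions, annotation, strand setting or multi-mapping rule. Of 22524 rows 22214 matched GENCODE M21, which gave symbols, coordinates and lengths. No 2 libraries were identical, and each is 1 animal. edgeR 4.0.16 in R 4.3.3 fitted genotype alone on all 15 libraries, with TMM factors, the default filter and Benjamini-Hochberg adjustment at 0.05. CPM were computed here from the deposited counts. The spread between animals sets the precision. Promoter windows are RefSeq's. Alternatives covered scaling, filters, DESeq2 1.42.0, limma-voom (limma 3.58.1), a GC and length offset (mgcv 1.9.3), marker scores as covariates and each library left out; leaving out the 2 shallowest libraries and thinning counts were added after the data were seen. Exact tests used scipy 1.17.1. The test was checked on simulated counts.

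The 10 genes, the lists and the settings were chosen with earlier results of these data known. Named genes are the 10, their partners, Rps9, the nearest profiles and up to 4 called genes of smallest p per list (2 as values where none was called). Phb, Grpel1, Dnaja3, Oma1, Atf4, Ddit3, Hsf1, Fgf21, Gdf15, Slc17a7, Gad1 and Syt1 were added after their values were seen.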

Additional observations from a re-analysis of the deposited data

Results flagged for a closer look

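In 3 of 32 groups of values 1 library stood apart from all the others of its genotype, where chance gives about 1 in 20, and many of these values are not independent. Lonp1 stood at 75.5 CPM in WT 30, against 68.7 to 70.3 CPM in the other WT libraries, and without WT 30 its log2 fold change was 0.16 in place of 0.14 and passed (edgeR, adjusted p = 0.00162). Spg7 stood at 53.5 CPM in D95N 28, against 43.9 to 47.4 CPM in the other D95N libraries, and its log2 fold change without that library was -0.09, still not called (edgeR, adjusted p = 0.0588). The ratio of Slirp to Lrpprc was 0.210 in WT 8, against 0.152 to 0.179 in the other WT libraries, and without WT 8 its log2 difference was 0.06. No explanation of these values was tested.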

How the results depend on the processing

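Afg3l2 and Lonp1 were called higher in 25 of 26 alternative fits, with log2 fold changes of 0.03 to 0.26 and 0.07 to 0.16. The members called higher were 4 with the GC and length offset, 4 without the 2 shallowest libraries (D95N 50 and D95N 28; Yme1l1 0.11 and Lrpprc 0.12), beside 2389 of 14928 and 13.1% of all tested genes called higher in those fits, 0 with blood and meningeal scores, and 2 to 4 leaving out 1 library, with 4 without D95N 28. With blood and meningeal scores 7 genes of all tested were higher and 5 lower, and 0 higher and 0 lower over the other mitochondrial lists. Scaling by library totals gave 14 lower over those lists, in place of 9, and leaving out 1 library 5 to 10, with 5 without D95N 21 or WT 32. All-gene calls were 2272 higher and 1744 lower, but 1808 and 2536 with library totals and 1926 and 2351 with upper-quartile factors. Log2 fold changes near 0 turned sign: Trap1 was -0.02 with library totals and with the offset, and -0.01 under upper-quartile factors and under blood and meningeal scores; Clpp was -0.04 with the offset. Hspa9 was 0.05 with the offset and 0.01 with oligodendrocyte, choroid plexus and striatum scores, and -0.02 to 0.01 leaving out 1 library. Hspd1 was 0.02 with the offset, 0.10 with blood and meningeal scores, 0.02 without the 2 shallowest libraries and -0.02 to 0.02 leaving out 1. mt-Nd1 was 0.04, 0.05 and 0.03 in those 3 fits. Fkbp8 and Phb2 were -0.06 and -0.03 with blood and meningeal scores. Leaving out 1 library, the log2 difference was -0.14 to -0.09 for Clpx over Clpp and -0.05 to 0.06 for Slirp over Lrpprc, and within D95N r was -0.53 to 0.29 for Clpp and Clpx and 0.08 to 0.95 for Hspd1 and Hspe1. The cause of these shifts was not tested. No analysis paired by litter was possible because the labels do not name the litter of each animal. The member of lowest depth was Hspe1, with at least 262 counts in every library.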
